A study of Homo sapiens with 2 samples.

Results

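Toll-like receptors and the first proteins of their signaling pathway were examined in Ramos, a Burkitt's lymphoma (BL) cell line of B-cell origin, and in Ramos640, a derivative of Ramos that was selected for resistance to rituximab-mediated complement-dependent cytotoxicity. The 10 genes were taken by symbol from the 37122 rows of the RNA sequencing count table. They comprised 4 receptors of the cell surface (TLR1, TLR4, TLR6 and TLR10), 3 receptors of endosomes (TLR3, TLR7 and TLR9), the adaptor MYD88 and the kinases IRAK1 and IRAK4. All 10 had a row, and all 10 had at least 100 reads in the 2 libraries together. Receptors with very few reads (TLR2, TLR5 and TLR8) were not among the 10 and are given beside them.

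Ramos and Ramos640 were both grown in RPMI 1640 with 10% fetal bovine serum, and the labels name no further treatment for Ramos. Ramos640 cells received rituximab, an antibody against CD20, at a labelled 640 mg/mL together with 20% normal human serum every 21 days, while the methods of the study give the antibody concentration in μg/mL. Ramos640 is a single selected line, and each cell line is represented by 1 sequencing library for which RNA of 3 passages had been mixed. No difference below has a replicate check, and no test was run. The libraries held 38030090 reads (Ramos) and 30871826 reads (Ramos640). All 8 B-cell markers examined were read in both libraries, from 1904 to 82890 reads a gene. They did not all move alike: MS4A1, which encodes the rituximab target CD20, had 9654 reads in Ramos and 1904 in Ramos640, PAX5 had 4624 and 2039, CD79A had 25460 and 29007, and CD79B had 69495 and 82890. The 8 monocyte and macrophage markers together had 53 and 23 reads, with CD14 at 2 and 3 reads, and the 4 plasmacytoid dendritic cell markers together had 16 and 13. Among 6 T-cell markers TRAC had 1555 and 583 reads and CD3E had 1 and 31, whereas none of the others had more than 5 reads. The 5 epithelial markers together had 43 and 16 reads. The part of other cell types in the results was not tested.

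Toll-like receptors recognize molecules that are typical of microbes. Those of the cell surface bind lipids and proteins of bacteria, and those of endosomes bind nucleic acids. Most of the receptors pass their signal through MYD88, which assembles IRAK4 and IRAK1 into a complex that leads through TRAF6 to NF-κB. TLR3 uses the adaptor TRIF instead, and TLR4 uses both adaptors. In B cells the receptors for nucleic acids and TLR10 are well known, and TLR1 and TLR6 act as partners of TLR2.

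TLR10, TLR1 and TLR6 lie next to each other on chromosome 4 and arose by duplication, so reads in stretches that are identical between them could have been counted for either gene. Their coding sequence lies in 1 exon each. In GENCODE v44lift37 on GRCh37, the coding sequences of TLR1 (2358 bases) and TLR6 (2388 bases) were identical at 77.4% of their aligned bases, TLR1 and TLR10 at 63.3%, and TLR6 and TLR10 at 62.7%. The longest stretch that TLR1 and TLR6 shared without a mismatch was 218 bases, and it is shown because no read inside it can be assigned to one gene. It lies on the minus strand at chr4:38798857-38799074 (TLR1, coding bases 1379 to 1596) and chr4:38829484-38829701 (TLR6, coding bases 1394 to 1611).
Shared by TLR1 and TLR6: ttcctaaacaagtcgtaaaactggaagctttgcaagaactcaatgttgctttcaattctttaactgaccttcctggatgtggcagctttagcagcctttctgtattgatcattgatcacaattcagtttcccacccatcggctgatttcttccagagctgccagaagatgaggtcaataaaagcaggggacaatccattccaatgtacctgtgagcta
Of all 50-base words of the TLR1 coding sequence, 10.3% also occurred in TLR6, and 10.2% of those of TLR6 occurred in TLR1. No 50-base word of TLR10 occurred in a transcript of another gene, so these duplicates differed enough to be told apart over that length. The 100 bases of TLR1 that were most like TLR10 are shown next with their counterparts, and capitals mark the bases that differ from TLR1. They lie on the minus strand of GRCh37 at chr4:38798299-38798398 (TLR1), chr4:38828926-38829025 (TLR6) and chr4:38775061-38775160 (TLR10).
TLR1: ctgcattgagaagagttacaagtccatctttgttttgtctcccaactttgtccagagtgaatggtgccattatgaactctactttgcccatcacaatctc
TLR6: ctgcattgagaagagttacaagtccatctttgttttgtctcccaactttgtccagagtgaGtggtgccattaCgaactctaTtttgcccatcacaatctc
TLR10: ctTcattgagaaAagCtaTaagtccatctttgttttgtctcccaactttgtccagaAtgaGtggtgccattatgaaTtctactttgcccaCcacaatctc
TLR6 differed from TLR1 at 3 of these 100 bases and TLR10 at 8, which is the closest that TLR10 came to TLR1 over such a length. The annotated exons of TLR1 and TLR6 overlap by a further 57 bases on the same strand. No 50-base word of TLR3, TLR7, MYD88, IRAK1 or IRAK4 occurred in another gene. TLR4 shared 8.59% of its coding words with the overlapping gene model ENSG00000285082, and TLR9 shared 99.9% with the overlapping model ENSG00000173366. Neither of these models has a row of that name in the count table.

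The 4 surface receptors were all lower in the Ramos640 library, whereas the 3 endosomal receptors, MYD88 and IRAK1 stood at 1.04-fold to 1.39-fold of their Ramos level. The lowest of these, TLR3, was on the other side of 1 when total counts set the scale. Fold changes were computed from counts divided by median-of-ratios size factors (1.14 for Ramos and 0.876 for Ramos640) after adding 1, and each interval is the exact Clopper-Pearson 95% interval of the reads, which covers counting error only. A gene was called when it was more than 1.5-fold higher or lower, the fold limit of the study. By this rule 5 of the 10 genes were lower and 0 were higher. Among the 18778 genes with at least 10 reads, 17.3% were called lower and 14.6% higher, and among the 13677 genes with at least 100 reads, as all 10 genes here had, 12.6% were called lower and 9.94% higher. In such bulk RNA, fewer cells that express a gene and less RNA per cell cannot be told apart.

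**Figure D1:**
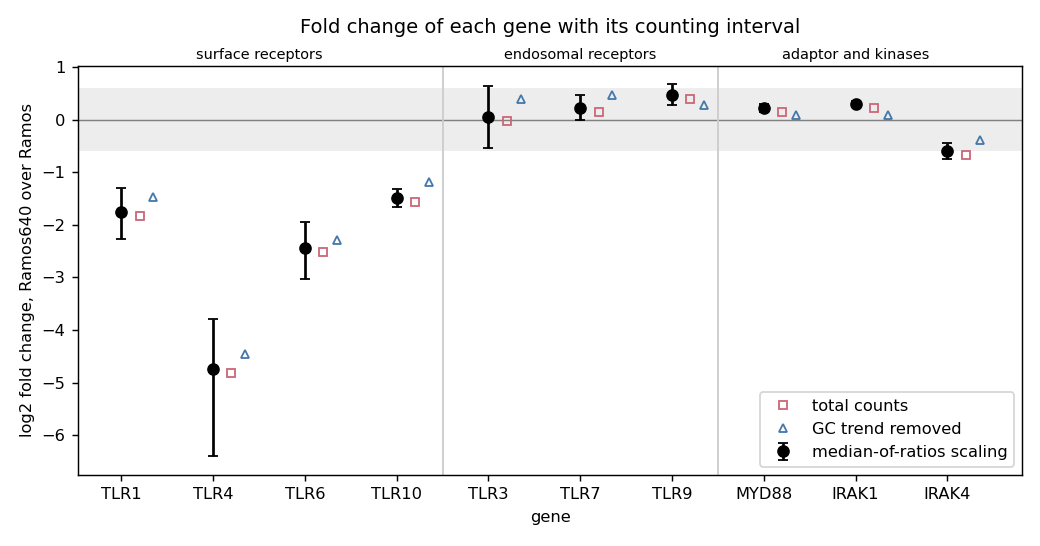
Log2 fold change of Ramos640 over Ramos for each gene, 1 library per cell line, by role. Black points are the values after median-of-ratios scaling with 95% counting intervals, open squares use total counts, open triangles have the GC content trend removed, and the grey band spans 1.5-fold either way: the 4 surface receptors lie below it under all 3 settings.

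TLR4, the receptor for bacterial lipopolysaccharide, showed the largest difference of the 10 genes. It lies on the plus strand of chromosome 9 from 120466453 to 120487013. Ramos had 239 reads of TLR4 and Ramos640 had 6. The log2 fold change was -4.75 (interval from -6.40 to -3.79), which is 26.8-fold lower after adding 1 to each scaled count. Without that addition the Ramos640 count was 3.27% of the Ramos count after scaling. Among the 18778 genes TLR4 stood at rank 31 from the lowest fold change.

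TLR6, which pairs with TLR2 to bind diacylated lipopeptides, lies on the minus strand of chromosome 4 from 38824518 to 38858438. Its reads numbered 252 and 35, so that TLR6 was 5.42-fold lower (log2 fold change -2.44, interval from -3.02 to -1.95). TLR1, which pairs with TLR2 to bind triacylated lipopeptides, lies on the same strand from 38792298 to 38858438. Its reads numbered 201 and 45, 3.38-fold lower (log2 fold change -1.76, interval from -2.28 to -1.31). With the reads of TLR1 and TLR6 added up, so that reads in the stretches they share cannot be misplaced, the log2 fold change was -2.11 (interval from -2.48 to -1.77).

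TLR10, a surface receptor of B cells without an agreed ligand, lies on the same strand from 38773859 to 38784611 and was the most abundant receptor of Ramos. There were 1341 reads against 368 in Ramos640, which was 2.79-fold lower (log2 fold change -1.48, interval from -1.65 to -1.32). The surface receptors differed in size of change. Within a library, the ratio of TLR4 to TLR10 reads was 10.9 times lower in Ramos640 (interval from 4.89 to 30.3) and that of TLR6 to TLR10 was 1.98 times lower (interval from 1.35 to 2.95). The ratio of TLR1 to TLR10 was 1.23 times lower, with an interval from 0.864 to 1.77 that includes 1, and that of TLR6 to TLR1 was 1.61 times lower, with an interval from 0.972 to 2.69. A difference between TLR1 and either of its neighbours was therefore not detectable at this depth.

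TLR9, the endosomal receptor for unmethylated CpG DNA, lies on the minus strand of chromosome 3 from 52255096 to 52259661. Its reads numbered 404 in Ramos against 430 in the smaller Ramos640 library (log2 fold change 0.47, interval from 0.27 to 0.67). TLR7, the endosomal receptor for single-stranded RNA, lies on the plus strand of chromosome X from 12885191 to 12908480. It had 320 and 287 reads, and its log2 fold change of 0.22 had an interval from -0.011 to 0.46. A second row of the table carries the name TLR7-like, which RefSeq lists as a synonym of TLR7. That row had 301 and 271 reads, a log2 fold change of 0.23, and both rows added up gave 0.23 as well (interval from 0.059 to 0.39). How the same gene came to have a pair of rows is not given in the sources used here, and reads may have been counted on both. TLR3, the endosomal receptor for double-stranded RNA, lies on the plus strand of chromosome 4 from 186990065 to 187009227, far from the TLR10, TLR1 and TLR6 cluster. It had 59 and 47 reads, a log2 fold change of 0.052 (interval from -0.53 to 0.63) that became -0.027 when total counts set the scale. None of the 3 endosomal receptors passed the 1.5-fold limit, and by the rows under their own names TLR9 was the only one of them whose interval did not include 0. With the TLR7-like reads added, that of TLR7 did not include 0 either. If the same reads stand on both rows, this sum counts them again and its interval is too narrow.

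MYD88, the adaptor shared by most of the family, lies on the plus strand of chromosome 3 from 38180043 to 38184515. Its 3421 reads stood against 3049 (log2 fold change 0.21, interval from 0.14 to 0.29). IRAK1, a kinase that IRAK4 phosphorylates, lies on the minus strand of chromosome X from 153275957 to 153285353. It had 7645 and 7215 reads, a log2 fold change of 0.30 (interval from 0.25 to 0.34). IRAK4, the kinase at the head of the complex, lies on the plus strand of chromosome 12 from 44152747 to 44192110 and went the other way, with 1006 and 509 reads and a log2 fold change of -0.60 (interval from -0.76 to -0.45). This value lay just past the limit of 0.58 on the log2 scale, and it was -0.40, within the limit, once the trend with GC content (given below) had been subtracted. Within a library, the ratio of IRAK4 to IRAK1 reads was 1.87 times lower in Ramos640 (interval from 1.67 to 2.09). This ratio does not remove the GC trend, and the GC content was 42.1% for IRAK4 and 62.7% for IRAK1. With the trend subtracted, IRAK1 came to 0.093 and MYD88 to 0.096, both below their counting intervals. IRAK4 overlaps TWF1 on the opposite strand by 103 exon bases, and TWF1 had 704 and 299 reads, so the part of the overlap in this value was not tested.

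The classes were also compared without any scaling of one library to the other. In Ramos there were 2033 reads of surface receptors and 783 of endosomal receptors, a ratio of 2.60. In Ramos640 there were 454 and 764, a ratio of 0.594. Surface receptors thus outnumbered endosomal receptors in Ramos and were outnumbered by them in Ramos640, and the ratio was 4.37 times lower in Ramos640 (exact conditional 95% interval from 3.78 to 5.05). TLR10 carried most of the surface reads, and without it the ratio was 7.85 times lower, with 692 and 86 reads left. Without TLR4 it was 3.91 times lower and without TLR9 3.95 times lower. Relative to MYD88, surface receptor reads were 3.99 times lower in Ramos640 (interval from 3.56 to 4.48), whereas the ratio of endosomal receptor reads to MYD88 was 1.09 times that of Ramos, with an interval from 0.978 to 1.23. None of these ratios removes the trend with GC content (given below). The GC content was 62.3% for TLR9 and 53.0% for MYD88, and from 37.6% to 42.8% for the other receptors. The medians of the log2 fold change were -2.10 for the surface receptors, 0.22 for the endosomal receptors and 0.21 for the adaptor and kinases, beside -0.016 for all 18778 genes tested.

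**Figure D2:**
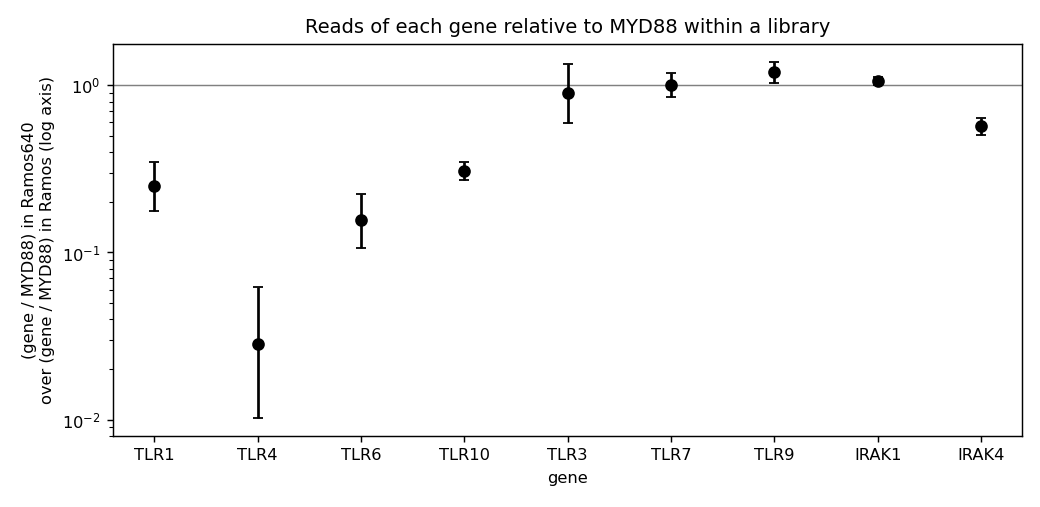
Reads of each gene divided by the MYD88 reads of the same library, given as Ramos640 over Ramos on a log axis with exact conditional 95% intervals, 1 library per cell line. TLR1, TLR4, TLR6, TLR10 and IRAK4 lie below 1 with their whole interval, TLR3, TLR7 and IRAK1 have intervals that include 1, and TLR9 lies above 1. The trend with GC content is not removed.

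Over the coding genes with 100 reads or more, the fold change moved with the GC content of the transcript. When these genes were ordered by GC content and divided into 5 equal groups, the group with the lowest GC content (2050 genes, up to 40.3%) had a median of -0.32 on the log2 scale and the group with the highest had 0.19. The canonical transcripts of TLR10, TLR1, TLR4 and TLR6 had a GC content from 38.3% to 42.8%. Those of the endosomal receptors had 37.6% (TLR3), 40.8% (TLR7) and 62.3% (TLR9). With the running median over GC content subtracted, the log2 fold changes were -4.45 for TLR4, -2.29 for TLR6, -1.47 for TLR1 and -1.18 for TLR10, and they were 0.38 for TLR3, 0.47 for TLR7 and 0.28 for TLR9. The surface receptors thus stayed past the limit and the endosomal receptors stayed within it.

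Levels were compared between genes as reads per kilobase of annotated exon, scaled to the library total (RPKM). In Ramos, TLR10 had the highest level of the receptors at 8.36 RPKM, followed by TLR9 (3.17), TLR7 (1.62), TLR1 (1.16), TLR6 (0.967), TLR4 (0.473) and TLR3 (0.207). Only the counting intervals of TLR1 and TLR6 overlapped between neighbours in this order. In Ramos640, TLR9 had the highest level at 4.16 RPKM, followed by TLR10 (2.83), TLR7 (1.79), TLR1 (0.321), TLR3 (0.203), TLR6 (0.165) and TLR4 (0.0146). Here the intervals of TLR1 and TLR3 overlapped, as did those of TLR3 and TLR6. These orders take TLR7 from its own row. With the TLR7-like reads added, TLR7 came to 3.14 RPKM in Ramos, with an interval that overlapped that of TLR9. In Ramos640 it came to 3.48 RPKM, between TLR9, whose interval it overlapped, and TLR10. TLR10 accounted for 52.4% of the summed receptor RPKM in Ramos and 29.8% in Ramos640, while TLR9 accounted for 19.9% and 43.9%. With the TLR7-like reads added, these shares were 47.8% and 25.3% for TLR10 and 18.1% and 37.2% for TLR9. If the same reads stand on both rows, the levels and shares with the TLR7-like row count them again. With TLR7 again from its own row only, TLR10 also came first in Ramos, and TLR9 first in Ramos640, with the longest or the median transcript as the length. Other lengths were not combined with the TLR7-like reads. The lower places moved: with the median transcript, which is 612 bases for TLR1, the Ramos order began TLR10, TLR1, TLR7 and TLR9, and TLR7 came before TLR10 in Ramos640. IRAK1 (47.1 and 54.8 RPKM) and MYD88 (21.5 and 23.6 RPKM) were above every receptor in both libraries, and IRAK4 (3.62 and 2.26 RPKM) was in the range of the receptors. With the median transcript as the length, IRAK4 had 16.3 and 10.1 RPKM and was above every receptor in its library.

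**Figure D3:**
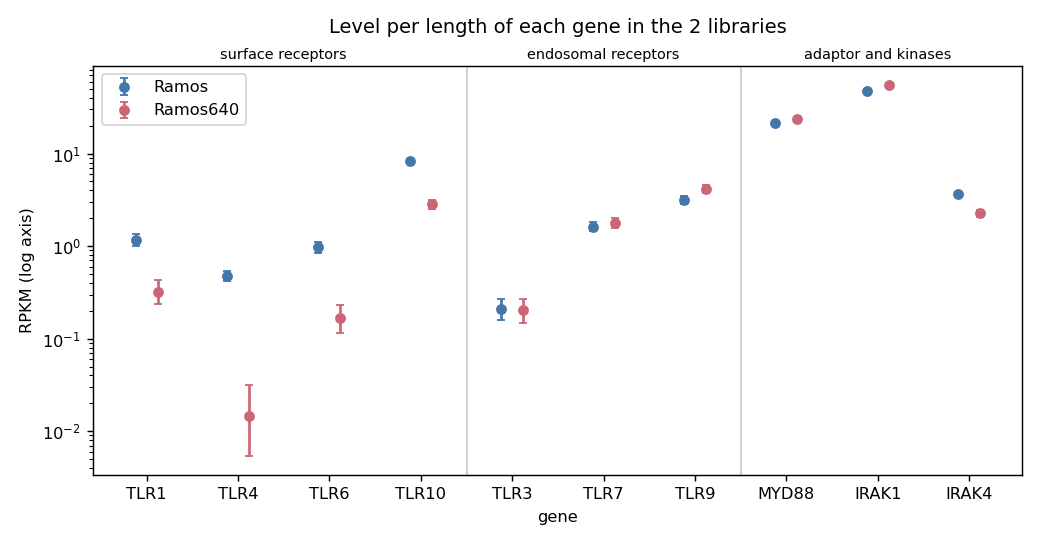
Level per length (RPKM, log axis) of each gene in the Ramos library (blue) and the Ramos640 library (red), with exact Poisson 95% counting intervals, 1 library per cell line. The surface receptors separate between the libraries, with TLR4 at 0.473 and 0.0146 RPKM, while the endosomal receptors, MYD88 and IRAK1 lie close together.

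The other receptors of the family were almost without reads. TLR2, the partner of TLR1 and TLR6, had 5 reads in Ramos and 0 in Ramos640, TLR5 had 0 in both, and TLR8 had 0 and 1. The counting intervals of their fold changes all included 0, so no direction was read from these genes. Of the proteins that help receptors to bind their ligands, LY96 (MD-2, the part of the TLR4 complex that holds lipopolysaccharide) had 27 and 11 reads, CD14 had 2 and 3, and LBP and CD36 had none. CD180 (RP105), a B-cell surface protein related to TLR4 that does not carry a signaling domain of the TLR type, had 1867 reads in Ramos and 237 in Ramos640. Its log2 fold change was -2.59 (interval from -2.80 to -2.40), 6.03-fold lower. Per length it stood at 8.66 RPKM in Ramos, with an interval that overlapped that of TLR10 (8.36 RPKM). LY86 (MD-1), which binds CD180, had 1879 and 1466 reads and a log2 fold change of 0.023 (interval from -0.077 to 0.12). Per length, CD180 had 1.35 RPKM in Ramos640, and LY86 had 41.1 RPKM in Ramos and 39.5 RPKM in Ramos640.

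The genes on either side of the receptors were examined because TLR10, TLR1 and TLR6 are neighbours. On the side of TLR6, TMEM156 (990 and 281 reads, log2 fold change -1.43, interval from -1.63 to -1.24) and KLHL5 (3269 and 1049 reads, -1.26, interval from -1.36 to -1.16) were also lower. Beyond them, WDR19 (1393 and 808 reads, -0.40) and RFC1 (6225 and 3245 reads, -0.56) lay within the limit, RFC1 only just and past it at -0.64 with total counts, and RPL9 had 0.23. On the side of TLR10, the nearest genes with at least 10 reads were TBC1D1 (20837 and 16628 reads, 0.056) and PTTG2 (169 and 135 reads, 0.057). KLF3, between TBC1D1 and TLR10, was listed with 0 reads in both libraries, and FAM114A1, between TLR6 and TMEM156, had 2 and 0 reads. From TLR10 to KLHL5 (355 kb), 5 coding genes reached 10 reads, the receptors included, with log2 fold changes from -2.44 to -1.26. The ends of this stretch were set by these values, at the last genes past the limit. That all 5 were past it is therefore no separate result. Over the 5 coding genes with at least 10 reads on each side of the cluster, 2 of 10 were called lower, beside 17.3% of all genes. Their median was -0.056.

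**Figure D4:**
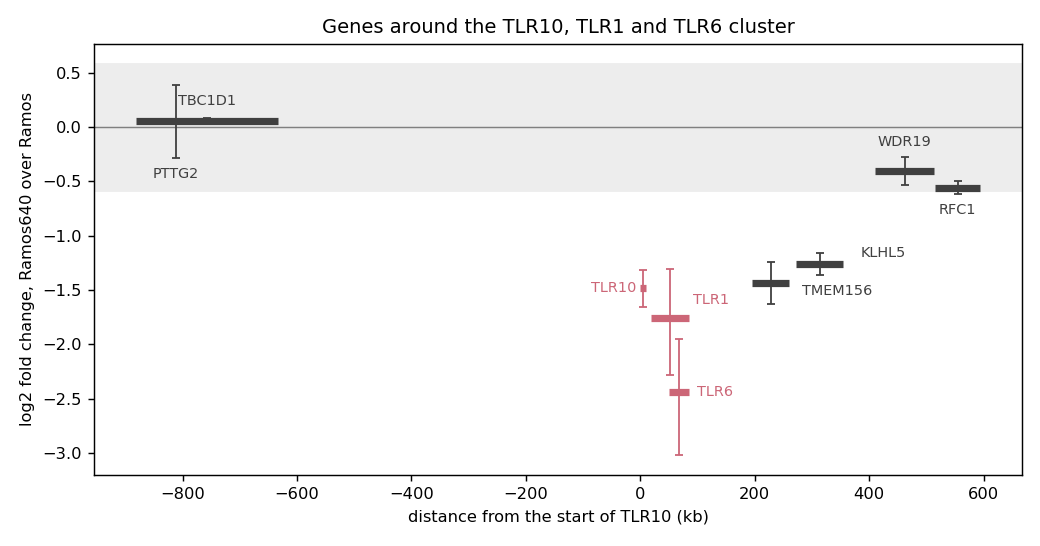
Log2 fold change of Ramos640 over Ramos for coding genes that reached 10 reads around the TLR10, TLR1 and TLR6 cluster (red), by distance from the start of TLR10 in kb. Horizontal bars span each gene, vertical bars are 95% counting intervals, the grey band spans 1.5-fold either way, and the 3 receptors, TMEM156 and KLHL5 lie below it while TBC1D1 and PTTG2 lie near 0.

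TLR4 stands in a stretch of chromosome 9 with few expressed genes. The nearest on one side were ASTN2 (10 and 12 reads) and TRIM32 (72 and 123 reads, log2 fold change 1.14, interval from 0.72 to 1.59), and the nearest on the other side was CDK5RAP2, 2664 kb away (3979 and 2829 reads, -0.11). Over 5 genes on each side of TLR4 the median was -0.14, with 2 of 10 called lower and 2 called higher, which is close to the 17.3% and 14.6% of all genes. Those called lower had few reads, PAPPA with 22 and 6 and TNC with 13 and 2. Those called higher were TRIM32 and ASTN2, the latter just past the limit at 0.59 with an interval from -0.69 to 2.01. The medians over 5 genes a side were 0.097 around TLR9, -0.062 around TLR7 and, with only 7 genes, -0.15 around TLR3. Single genes differed from these medians. The nearest coding genes with at least 10 reads on either side of TLR9 were ALAS1 (0.40) and TWF2 (0.35). Those of TLR7 were PRPS2 (0.11) and TMSB4X (8984 and 2242 reads, -1.62), and those of TLR3 were SORBS2 (-0.10) and CYP4V2 (-0.15).

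RefSeq promoter sequences (GRCh38.p14) were on hand for 7 of the 10 genes and not for TLR1, TLR7 and TLR10. The 250 bases before the start are shown for TLR4 and TLR6, which were lower, and for TLR9, which was not, so that the control regions of the 3 genes can be read side by side. Capitals mark 3 motifs searched on both strands: GAGGAA, a core of sites for the myeloid and B-cell factor PU.1, ATGCAAAT, the octamer, and TGANTCA, a site for AP-1. The regions are chr9:117704153-117704402 on the plus strand (TLR4), chr4:38856818-38857067 on the minus strand (TLR6) and chr3:52225646-52225895 on the minus strand (TLR9).
TLR4: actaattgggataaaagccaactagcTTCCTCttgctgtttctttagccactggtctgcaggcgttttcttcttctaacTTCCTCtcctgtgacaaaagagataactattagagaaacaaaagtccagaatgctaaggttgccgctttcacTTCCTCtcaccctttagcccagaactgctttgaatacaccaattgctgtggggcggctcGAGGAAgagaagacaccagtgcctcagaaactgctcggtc
TLR6: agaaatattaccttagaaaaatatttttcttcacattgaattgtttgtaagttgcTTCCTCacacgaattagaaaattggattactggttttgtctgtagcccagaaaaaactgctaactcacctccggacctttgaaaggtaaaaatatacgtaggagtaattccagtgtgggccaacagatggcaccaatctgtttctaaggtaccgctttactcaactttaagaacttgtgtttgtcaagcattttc
TLR9: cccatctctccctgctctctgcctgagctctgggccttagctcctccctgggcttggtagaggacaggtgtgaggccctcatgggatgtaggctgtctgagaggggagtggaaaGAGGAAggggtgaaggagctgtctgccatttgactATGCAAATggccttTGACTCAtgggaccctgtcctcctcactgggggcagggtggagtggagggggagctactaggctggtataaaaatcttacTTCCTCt
The PU.1 core matched 4 times in TLR4, 1 time in TLR6 and 2 times in TLR9, and the octamer and the AP-1 motif matched 1 time each in TLR9 and not in TLR4 or TLR6. No matches in these promoters overlapped. Of 35116 promoters of the same length, 23.6% held at least 1 PU.1 core, 3.49% at least 2 and 0.0513% at least 4, while 1.63% held the octamer and 6.57% the AP-1 motif. MYD88 held 1 PU.1 core, and no motif matched in TLR3, IRAK1 or IRAK4, while CD180, which is described above, held 1 AP-1 match only. A match is a run of letters, and binding was not measured.

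The rest of the pathway was described by lists of 86 genes in all, 67 of them with at least 10 reads. Of these 67, 13 were called lower and 9 higher, around a median of -0.099 on the log2 scale. That is 19.4% lower and 13.4% higher, near the 17.3% and 14.6% of all genes. With total counts the split was 16 lower and 6 higher, and the shares of all genes moved as well, to 20.4% lower and 12.5% higher. From 100 reads upwards there were 57 genes, of which 8 were lower and 7 higher, beside 12.6% and 9.94% of all genes with as many reads. No gene on the lists of other adaptors with a TIR or related domain (5 with at least 10 reads) or of transcription factors (8 genes) passed the limit. The adaptors included TICAM1 (TRIF), with 799 and 917 reads (log2 fold change 0.58), and TIRAP, which links TLR4 and the TLR2 pairs to MYD88, with 231 and 139 reads (-0.35). The transcription factors ranged from -0.53 (REL) to 0.56 (RELA), and REL was past the limit at -0.61 with total counts.

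Of 11 genes for transport and cleavage of the endosomal receptors, 5 were called lower and 1 higher, beside 17.3% and 14.6% of all genes. CTSL (listed as CTSL1, 8 and 3 reads) and CTSK (29 and 8 reads) were among the 5, and from 100 reads upwards 3 of 9 were lower. HSP90B1, the chaperone gp96 that folds most of these receptors, was higher, with 7195 and 10902 reads (log2 fold change 0.98, interval from 0.94 to 1.02). UNC93B1, which carries TLR3, TLR7 and TLR9 to endosomes, had 1176 and 761 reads (-0.25, interval from -0.38 to -0.11). SLC15A4, an endosomal transporter needed for TLR7 and TLR9 signals, was lower with 2437 and 1092 reads (-0.78), AP3B1, a subunit of the sorting adaptor AP-3, with 1787 and 896 (-0.61), and the protease CTSB with 83 and 38 (-0.73). AP3B1 lay within the limit at -0.36 after the GC trend was removed.

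Among 19 other kinases and ubiquitin enzymes, 4 were called higher and 2 lower, beside 14.6% and 17.3% of all genes. With total counts 3 were higher and 4 lower, beside 12.5% and 20.4% of all genes. TRAF3, an adaptor and ubiquitin ligase of the pathway, had 42 and 208 reads (2.66, interval from 2.21 to 3.20). IKBKE (0.74) and IKBKB (0.66) were higher, and TBK1 (-0.62) was lower. With the GC trend subtracted, IKBKE came to 0.56, IKBKB to 0.54 and TBK1 to -0.30, all within the limit. IRAK3, a kinase-dead relative of IRAK1 that restrains the complex, had 10 and 42 reads (2.33, interval from 1.43 to 3.61), and IRAK2 had 15 and 4 (-1.35, interval from -3.58 to 0.12). These 2 genes were named after their values were seen. TRAF6 itself had 380 and 225 reads (-0.37), within the limit.

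Of 10 inhibitors, 1 was called higher and 2 lower, beside 14.6% and 17.3% of all genes. TNFAIP3 (A20), which removes ubiquitin chains, was higher with 368 and 541 reads (0.93). SOCS1 (-0.59) and OTUD7B, with 32 and 10 reads (-1.23), were lower. Of 10 genes that the pathway induces and that had at least 10 reads, 3 were called higher and 1 lower, beside the same 14.6% and 17.3%. LTA (285 and 362 reads, 0.72), a cytokine of lymphocytes, and CD40 (2035 and 2425 reads, 0.63), a receptor for T-cell help, were past the limit on the higher side. So was CD80 (9 and 11 reads, 0.61, interval from -0.74 to 2.12). With total counts CD40 came to 0.55 and CD80 to 0.54, within the limit. With the GC trend subtracted LTA came to 0.53 and CD40 to 0.55, within the limit. CD86, a costimulatory ligand for T cells, was lower with 465 and 159 reads (-1.16, interval from -1.44 to -0.90). CCL3, CCL4, IL6 and IL10 had no reads in either library. Some receptors of the interleukin-1 family also signal through MYD88. Of the 7 genes listed for this family, only IL1RAP had reads, with 408 and 204 (-0.62). It came to -0.31 after the GC trend was removed. SIGIRR, a member of the family that was listed with the inhibitors, had 434 and 311 reads (-0.099).

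**Figure D5:**
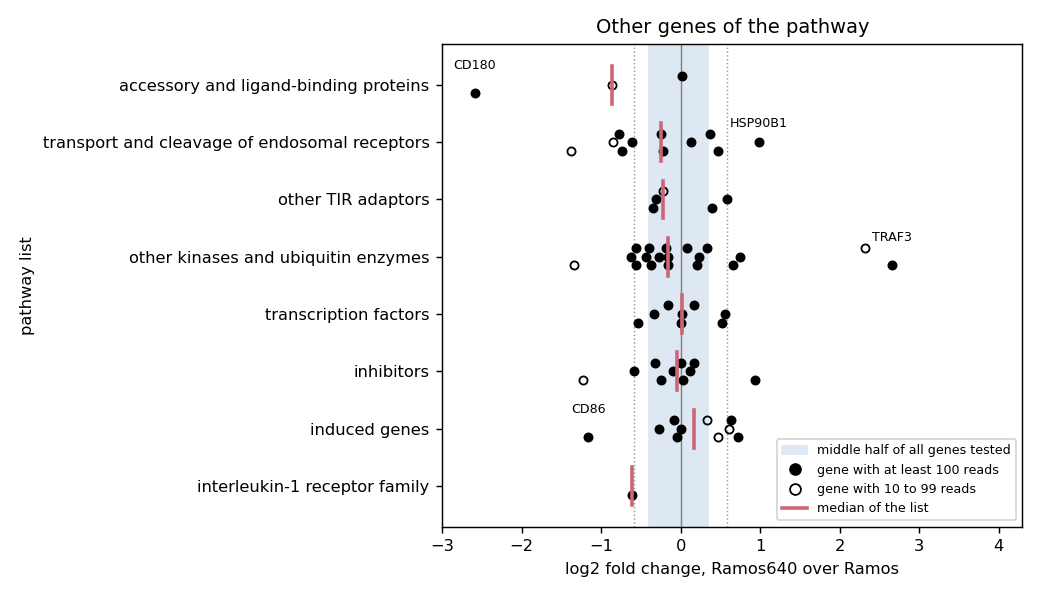
Log2 fold change of Ramos640 over Ramos for the other genes of the pathway with at least 10 reads, by list. Filled points have at least 100 reads, open points 10 to 99, red lines are list medians, the blue band spans the interquartile range of all 18778 genes tested and dotted lines mark 1.5-fold: CD180 and TRAF3 lie furthest from 0, at -2.59 and 2.66.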

How the data were processed

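For each cell line, RNA of 3 passages was mixed and sequenced on an Ion Proton instrument. The authors trimmed adaptors, mapped to GRCh37 with MapSplice (v2.1.6) and deposited whole-number counts per gene without normalization. How reads were counted, on which annotation, with or without strand, and what was done with multiply mapping reads is not given in the sources used here. As deposited, 28 gene names had become whole numbers, and those rows were kept. The genes and lists were chosen with earlier results of these data known.

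Median-of-ratios size factors scaled the counts, following the DEseq method of the study, and 1 was added before the log2 fold change. Genes needed 10 reads over both libraries (18778 genes). Intervals at 95% were Clopper-Pearson for fold changes, exact conditional for read ratios and Poisson for RPKM (scipy 1.17.1). With 1 library per cell line no p-value was computed. TMM factors came from edgeR 4.0.16 (R 4.3.3). Gene models, lengths and GC content came from GENCODE v44lift37, which matched 84.1% of those genes. The GC trend was a running median over 501 coding genes ordered by GC content. Coding sequences were aligned with Biopython 1.88. The calculations were tested on simulated data. Alternatives were total counts, TMM, pseudocounts of 0.1 and 10, minimums of 1 and 100 reads, the GC trend and other lengths. Further ones were the reads of TLR1 and TLR6 added up, words of 25 and 100 bases and 10 neighbours a side.

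Named genes are the 10 members, the other Toll-like receptors, genes of each list past 1.5-fold with 100 reads or more (at most 3 each way) and the neighbours of TLR4 and the TLR10 cluster. Others were named after their values were seen.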

Additional observations from a re-analysis of the deposited data

How the results depend on the processing

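Of the 10 genes, TLR4 kept a log2 fold change from -4.91 to -3.70 over all alternatives run, and TLR10 from -1.56 to -1.18. On their own reads TLR6 ranged from -2.52 to -2.21 and TLR1 from -1.84 to -1.47. The reads of both added up gave -2.11. The sign of TLR3 depended on the scaling (-0.027 to 0.38), and IRAK4 ranged from -0.68 to -0.40. The median of the adaptor and kinases was 0.13 with total counts and 0.093 with the GC trend removed. Against 9 pathway genes called higher and 13 lower, there were 6 and 16 with total counts, 5 and 10 with the GC trend removed, 7 and 8 with at least 100 reads, and 13 and 14 with at least 1 read. Of all genes, 12.5% were higher and 20.4% lower with total counts, and 13.9% and 16.0% with the GC trend removed. With at least 100 reads the shares were 9.94% and 12.6%, and for at least 1 read they are not given here. The ratio of surface to endosomal receptor reads, Ramos640 over Ramos, was 0.127 without TLR10, against 0.229 with all 7 receptors. Adding the TLR7-like row was chosen after seeing the data, and with it the ratio was 0.234. This addition may count the same reads again. The share of TLR1 words found in TLR6 was 19.2% for words of 25 bases and 5.27% for 100. No paired analysis was possible because each cell line has 1 library, and for the same reason no library could be left out. For the changes named, the cause was not tested. The interval given for TLR4, which had 6 reads in Ramos640, covers counting error only. Its value of -3.70, found with a pseudocount of 10, lay outside that interval.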
